A study of Mus musculus with 6 samples.

Results

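Transcripts of 7 genes of the BCL2 family were followed through the immune cells of mouse pancreatic tumors and across 3 treatments. The genes were taken as a fixed list, Bcl2, Bcl2l1, Bcl2l11, Mcl1, Bcl2a1b, Bcl2a1d and Bax, and all 7 were present among the 34187 genes of the deposited single-cell matrices. Male and female C57BL/6 mice carried subcutaneous tumors of the 6694c2vTRP1 pancreatic cancer line and were injected intraperitoneally with PBS, mono-IL10 (26 µg) or IL10/2-Trikine (30.6 µg) in 2 doses, the first on day 8, before tumors were taken on day 14. Mice of the study's 6694C2 tumor experiment were 6 to 8 weeks old, and no separate age was found for the mice sequenced. Mono-IL10 is a monomeric human interleukin-10. IL10/2-Trikine is the same molecule joined to an interleukin-2 variant that binds IL-2Rβ without signaling by itself. CD45+ tumor-infiltrating cells from 5 hashtagged mice were pooled into 1 library for each treatment, and the mouse was the unit of replication. The treatment and the library therefore cannot be told apart, and the 3 comparisons share mice. Nothing in the labels ties a hashtag number in 1 library to the same number in another.

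Proteins of this family set the threshold for mitochondrial apoptosis. BCL2, BCL-XL (Bcl2l1), MCL1 and A1 (the Bcl2a1 genes) hold the pathway off by binding their proapoptotic relatives. BIM (Bcl2l11) is a BH3-only protein that neutralizes these guardians, and BAX is an effector that permeabilizes the outer mitochondrial membrane once it is released or activated. In immune cells the guardians are divided by lineage: resting lymphocytes are known for their use of BCL2, neutrophils for their need of MCL1, and myeloid and activated cells for inducible A1. Signals through STAT5 downstream of interleukin-2 family receptors and through STAT3 downstream of interleukin-10 are both known to act on members of the family.

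The 3 libraries held 44412 barcodes (PBS), 30528 (mono-IL10) and 55504 (IL10/2-Trikine) with 515236552, 458860129 and 364814102 gene UMIs. The authors annotated T and NK cells in 12 clusters, with 516, 843 and 725 cells, of which 348, 635 and 400 carried 1 mouse hashtag. Macrophages (18335 cells) and neutrophils (995 cells) were named here from marker genes after clustering without the family's own genes. The markers did not separate monocytes, so macrophages here means clusters named macrophage or monocyte. Fewer cells of a kind and less RNA per cell cannot be told apart in summed levels of a mixed population. All 9 macrophage markers were detected in the macrophages, at a summed level of 24913 to 31516 UMIs per 1000000 gene UMIs (CPM) per mouse, and all 9 neutrophil markers in the neutrophils. These markers also named the clusters, so their detection is no separate check. All 9 of either list were detected in the other population too. Although the libraries were labelled CD45+, 41019 barcodes fell in clusters named tumor cells from keratin and other epithelial markers. Depth differed between libraries: the median macrophage held 5117, 6200 and 2755 UMIs and the median neutrophil 2601, 2666 and 2218 UMIs with PBS, mono-IL10 and IL10/2-Trikine. Pairs of libraries shared 206 to 342 barcodes among those that passed the filters.

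Bcl2a1b and Bcl2a1d are near-identical genes that lie, with Bcl2a1a, on chromosome 9. In the GRCm38 annotation Bcl2a1d spans chr9:88723285-88731914 on the minus strand, Bcl2a1a chr9:88956900-88962419 and Bcl2a1b chr9:89199209-89207827, both on the plus strand. Each has 2 exons and 519 coding bases. The files themselves were made on GRCm39, so these positions are not those of the files. The first 90 coding bases are shown to make visible how little separates the copies, with the 6 positions at which they are not all alike in capitals.
Bcl2a1d: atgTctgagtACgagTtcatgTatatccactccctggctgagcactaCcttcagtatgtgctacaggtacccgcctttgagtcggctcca
Bcl2a1a: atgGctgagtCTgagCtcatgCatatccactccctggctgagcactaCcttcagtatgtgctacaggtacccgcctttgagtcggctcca
Bcl2a1b: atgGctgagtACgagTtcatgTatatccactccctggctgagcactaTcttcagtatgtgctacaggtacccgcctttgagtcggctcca
Over the whole coding sequence Bcl2a1d was 98.8% identical to Bcl2a1b and 98.7% identical to Bcl2a1a, and Bcl2a1a and Bcl2a1b were 97.9% identical. Of all 90-base windows of the annotated transcript, 61.6% in Bcl2a1d, 47% in Bcl2a1a and 36.1% in Bcl2a1b occurred unchanged in another copy. Counts assigned to 1 copy are therefore uncertain, and the A1 results below are given copy by copy with this limit.

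The sequence immediately upstream of the 3 transcripts is shared as well. RefSeq promoter windows (GRCm38.p6; 250 bases before to 50 after the start) were found for all 7 genes and Bcl2a1a, and were searched on both strands for TGANTCA (AP-1), GAGGAAGT (a PU.1-type site), TTCNNNGAA (STAT) and an NF-kappaB motif. A stretch of each A1 window is printed, from a block that the 3 copies share to the last base before the annotated transcript, with the AP-1 and PU.1-type matches in capitals, because these matches were found in the A1 genes and in none of the other members.
Bcl2a1d, chr9:88731915-88732050, minus strand: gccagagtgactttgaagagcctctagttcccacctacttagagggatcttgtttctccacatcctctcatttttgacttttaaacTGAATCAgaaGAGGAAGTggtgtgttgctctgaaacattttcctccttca
Bcl2a1a, chr9:88956714-88956899, plus strand: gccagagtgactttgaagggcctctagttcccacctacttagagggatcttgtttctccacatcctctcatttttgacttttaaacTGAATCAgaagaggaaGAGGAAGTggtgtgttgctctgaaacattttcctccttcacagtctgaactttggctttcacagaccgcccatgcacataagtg
Bcl2a1b, chr9:89199023-89199208, plus strand: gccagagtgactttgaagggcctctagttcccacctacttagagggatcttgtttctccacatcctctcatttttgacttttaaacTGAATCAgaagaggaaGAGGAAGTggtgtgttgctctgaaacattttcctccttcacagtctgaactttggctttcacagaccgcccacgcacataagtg
Of all 32851 windows of the same length, 7.81% held the AP-1 motif, 3.2% the PU.1-type motif, 8.3% the STAT motif and 8.46% the NF-kappaB motif. No STAT match lay in a window of the 7 genes, and the only NF-kappaB match was in 1 of 3 Bcl2l1 windows. These are letter matches in short windows and no binding was measured.

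Each member had its own distribution over cell types (plot of levels by population). Values here are CPM summed over all cells of a population in the 3 libraries, with exact 95% Poisson intervals that cover counting error only; they are a description, since the clusters were formed on these cells.

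Mcl1 was detected in every population and made up its largest share of UMIs in neutrophils and macrophages. Its level was 2604 CPM (2546 to 2662) in neutrophils and 1250 CPM (1243 to 1257) in macrophages, and no annotated lymphocyte cluster exceeded the 380 CPM (295 to 480) of naive_CD4T. Tumor cells held 250 CPM. Below the myeloid cells, neighbours in the order had overlapping intervals, from naive_CD4T down to Cycling_Treg at 129 CPM. That order also ranks pooled T and NK cells beside their own clusters. Further apart in it, the interval of naive_CD4T did not overlap that of Cycling_T (186 to 229) or the NK cluster (176 to 207). These intervals leave out the spread between mice and libraries.

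Bcl2a1b and Bcl2a1d also peaked in neutrophils, at 850 CPM (817 to 883) and 643 CPM (614 to 672). Elsewhere Bcl2a1b was 293 CPM (167 to 475) in the 21 Th17_ILCs cells, 281 CPM (278 to 284) in macrophages and 186 CPM (155 to 220) in act_CD4T cells. Bcl2a1d was 249 CPM (214 to 289) in act_CD4T cells, 165 CPM (75.3 to 313) in Th17_ILCs cells and 153 CPM (150 to 155) in macrophages. In tumor cells of the same libraries the copies were at 3.61 and 2.37 CPM, and in NK cells at 61 and 78.1 CPM. Summed neutrophil markers in NK cells were 0 to 88.4 CPM per mouse, against 31309 to 54465 CPM in neutrophils, and summed macrophage markers in NK cells were 118 to 705 CPM.

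Bcl2 ran the other way. The level was 332 CPM (289 to 380) in gdT_NKT, 311 CPM (270 to 356) in naive_CD8T and 263 CPM (245 to 282) in the NK cluster, but 27.2 CPM in macrophages and 5.69 CPM (3.31 to 9.1) in neutrophils. Regulatory T cells stood with the myeloid cells: Treg held 5 Bcl2 UMIs in 127 cells (14.9 CPM, 4.84 to 34.8), and Cycling_Treg held 0 UMIs in 32 cells, where 3 UMIs would be 14.3 CPM. The highest Bcl2 value, 1400 CPM in the 25 naive_T cells, rested on the mono-IL10 library, which gave 19 of these cells and 68 of their 73 UMIs; the 5 naive_T cells of the PBS library gave 306 CPM (63.2 to 896).

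Bcl2l1 peaked in neutrophils and Treg, where Bcl2 was low. Neutrophils held 249 CPM (231 to 267) and Treg 245 CPM (195 to 304), with overlapping intervals, and the Treg value was 241, 247 and 249 CPM in the PBS, mono-IL10 and IL10/2-Trikine libraries. NK cells held 27.9 CPM (22.6 to 34.2) and macrophages 64 CPM. Bcl2 and Bcl2l1 thus stood in opposite order in Treg and NK cells.

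Bcl2l11, which encodes the antagonist of these guardians, was 767 CPM (548 to 1045) in the 25 naive_T cells, 490 CPM (437 to 548) in gdT_NKT, 481 CPM (457 to 507) in the NK cluster and 374 CPM in neutrophils. It was 230 CPM (227 to 233) in macrophages and 83.5 CPM (55.5 to 121) in Treg, and lowest, at 39.2 CPM, in tumor cells. Over these populations Bax varied least: in every one of over 25 cells it lay between 80.8 CPM (tumor cells) and 155 CPM (neutrophils). Neighbours in its order had overlapping intervals, but those of neutrophils (141 to 169), macrophages (119 to 123) and tumor cells (80.1 to 81.4) were apart. Within neutrophils of at least 500 genes per barcode Bax was not uniform. It was 34.3 CPM in a cluster led by Retnlg and Stfa2l1 and 244 CPM in one led by Prss2 and Siglecf.

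**Figure D1:**
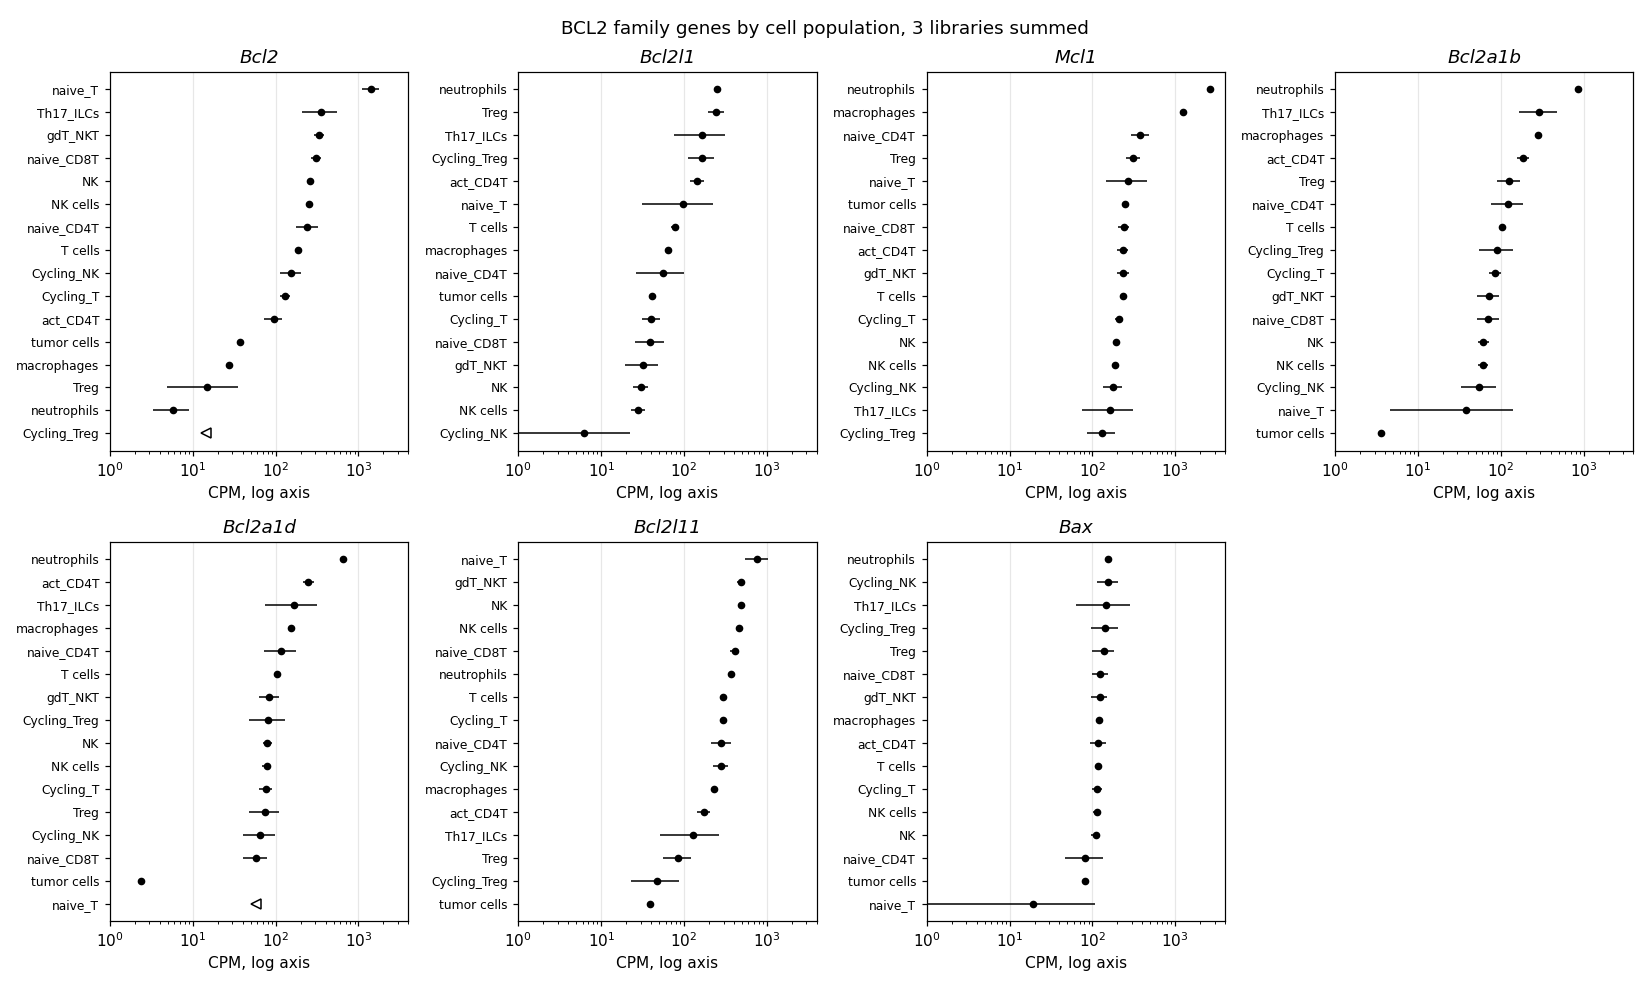
Level of each of the 7 genes (x axis, CPM on a log axis) in each cell population (y axis, ordered by level), with all 3 libraries summed; points are levels, bars exact 95% Poisson intervals, and an open triangle marks the level that 3 UMIs would give where none was counted. Mcl1 peaks in neutrophils (2604 CPM) and macrophages (1250 CPM), Bcl2 in lymphocytes, and Bax lies within a narrow range apart from the 25 naive_T cells.

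Genes with the most similar profile over 13 populations were sought among 6251 genes by Pearson's r of log2(CPM + 1), as a description; the populations share libraries and differ in depth. For Mcl1 these were Il1b (r = 0.98), Trem3 (0.95) and Lrrc25 (0.95), and for Bcl2l11 Sorl1 (0.94), Slc20a1 (0.93) and Atp8b4 (0.91). Bcl2 was closest to Ust and Btbd11 (both 0.96) and Pdlim1 (0.95), and Bcl2l1 to Ntng2 (0.94), Tmem154 (0.92) and H1f0 (0.86). Bcl2a1b was followed most closely by Cstb (0.93), Xbp1 (0.92) and Bcl2a1a (0.92). Bcl2a1d was followed by Pofut2 (0.97), Csrnp1 and Card19 (both 0.96), and Bax by Tomm6 (0.99), Ublcp1 and Sys1 (both 0.98). The 13 populations counted equally, among them the 25 naive_T cells, with 0 Bcl2a1d UMIs and 1 Bax UMI. The part of these cells in the r values was not tested.

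Macrophages had the deepest sums of the tested immune populations, 1036522 to 13637238 UMIs per mouse in 5 mice of each group. With mono-IL10, Mcl1 rose and Bcl2a1d fell against PBS. With IL10/2-Trikine, Bcl2a1d fell against PBS while Mcl1 stood at the PBS level, and Bcl2l11 and Mcl1 were both lower than with mono-IL10. Differences below are log2 differences fitted by edgeR's quasi-likelihood test on UMI sums per mouse with TMM scaling. P-values were adjusted by Benjamini-Hochberg over all 12241 genes tested, with a threshold of 0.05. CPM values are relative to total UMIs and so are not on the fitted scale. With total UMIs the median of all genes was -0.11 for mono-IL10 against PBS, beside -0.01 with TMM. For IL10/2-Trikine against mono-IL10 it was 0.11, beside 0.01.

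Mcl1 was 1077, 1099, 1197, 1257 and 1268 CPM in the PBS mice. It was 1349, 1385, 1388, 1306 and 1618 CPM in the mono-IL10 mice and 1169, 1157, 1266, 1086 and 1254 CPM in the IL10/2-Trikine mice. The lowest mono-IL10 mouse exceeded the highest mouse of either other group. How many of all genes separated the groups in this way, here and below, was not counted. The fitted difference was 0.35 (SE 0.0679, adjusted p = 6.46e-04) for mono-IL10 against PBS and -0.35 (SE 0.0684, adjusted p = 0.00217) for IL10/2-Trikine against mono-IL10. Against PBS the IL10/2-Trikine difference was 0.00, with a 95% interval of -0.14 to 0.14.

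Bcl2a1d was 174, 189, 183, 185 and 170 CPM in the PBS mice. It was 133, 141, 129, 131 and 109 CPM with mono-IL10 and 118, 136, 105, 159 and 126 CPM with IL10/2-Trikine. No treated mouse reached the lowest PBS mouse. The difference was -0.39 (SE 0.0891, adjusted p = 0.00294) for mono-IL10 and -0.49 (SE 0.0944, adjusted p = 0.00125) for IL10/2-Trikine against PBS, and -0.10 (95% interval -0.30 to 0.10) between the agents. Its near-identical copy Bcl2a1a had the same sign, at -0.30 (adjusted p = 0.0289) and -0.42 (adjusted p = 0.0105). The other copy did not: Bcl2a1b stood at 292 ± 15.7 CPM (SD, n = 5) with PBS, 264 ± 15.6 with mono-IL10 and 299 ± 28.6 with IL10/2-Trikine, with fitted differences from PBS of -0.05 (95% interval -0.21 to 0.10) and 0.02 (-0.14 to 0.18).

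Bcl2l11 was 242, 211, 194, 275 and 230 CPM in the PBS mice. It was 244, 238, 230, 252 and 262 CPM with mono-IL10 and 198, 202, 186, 186 and 208 CPM with IL10/2-Trikine. All IL10/2-Trikine mice lay below all mono-IL10 mice but overlapped the PBS mice. The difference was -0.42 (SE 0.078, adjusted p = 0.00145) against mono-IL10 and -0.24 (SE 0.0778, adjusted p = 0.0434) against PBS. The latter lost its call in 8 of 10 fits that left out 1 mouse (highest adjusted p = 0.128, without PBS mouse 4).

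Bax was 120 ± 7.51 CPM with PBS, 123 ± 6.82 with mono-IL10 and 112 ± 8.63 with IL10/2-Trikine (SD, n = 5 each). The groups overlapped, and the difference between the agents, -0.24 (SE 0.0724, adjusted p = 0.0324), kept its call in 4 of 10 fits without 1 mouse and lost it when libraries were scaled by total UMIs (-0.13, adjusted p = 0.195). Bcl2 and Bcl2l1 passed the threshold in no macrophage comparison; their largest fitted differences were -0.23 for Bcl2 (mono-IL10 against PBS, adjusted p = 0.116) and -0.23 for Bcl2l1 (IL10/2-Trikine against mono-IL10, adjusted p = 0.133).

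In counts, 2 of 7 members passed for IL10/2-Trikine against PBS (Bcl2l11 and Bcl2a1d, both lower) where 16.7% of all genes tested did, 3 of 7 (all lower) for IL10/2-Trikine against mono-IL10 where 13.8% did, and 2 of 7 (1 higher, 1 lower) for mono-IL10 against PBS where 29.5% did. The members' median differences were -0.10, -0.23 and 0.02, beside 0.00, 0.01 and -0.01 over all genes. Scaling by total UMIs moved the median of all genes to -0.11 for mono-IL10 against PBS and to 0.11 for IL10/2-Trikine against mono-IL10, and the share of called genes that were higher from 48.7% to 25.8% (mono-IL10 against PBS) and from 45.7% to 75.9% (IL10/2-Trikine against mono-IL10). Under that scaling Mcl1 stayed past the threshold at 0.26 (adjusted p = 0.00813) and -0.25 (adjusted p = 0.0206), and Bcl2a1d at -0.49 (mono-IL10) and -0.48 (IL10/2-Trikine) against PBS, while Bcl2 passed for mono-IL10 against PBS at -0.34 (adjusted p = 0.0339).

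Markers of other cell types were also counted in the macrophage sums, by group. Summed neutrophil markers were 846 to 927 CPM per mouse with PBS, 599 to 940 with mono-IL10 and 638 to 1065 with IL10/2-Trikine, all 9 of 9 detected in each group. Summed T cell markers were 24.7 to 36.5, 12.7 to 30.4 and 40.9 to 68.3 CPM in the same order, 5 of 5 detected in each, and NK markers 3.39 to 10.5, 1.67 to 5.6 and 8.99 to 15.2 CPM, also 5 of 5. Tumor epithelial markers were 54.3 to 151, 27.8 to 104 and 89.6 to 152 CPM, with 5 of 5 detected except with mono-IL10, where Cldn4 was at 0. Macrophage markers were 24913 to 31516 CPM over all mice. The part of these markers in the member values was not tested.

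**Figure D2:**
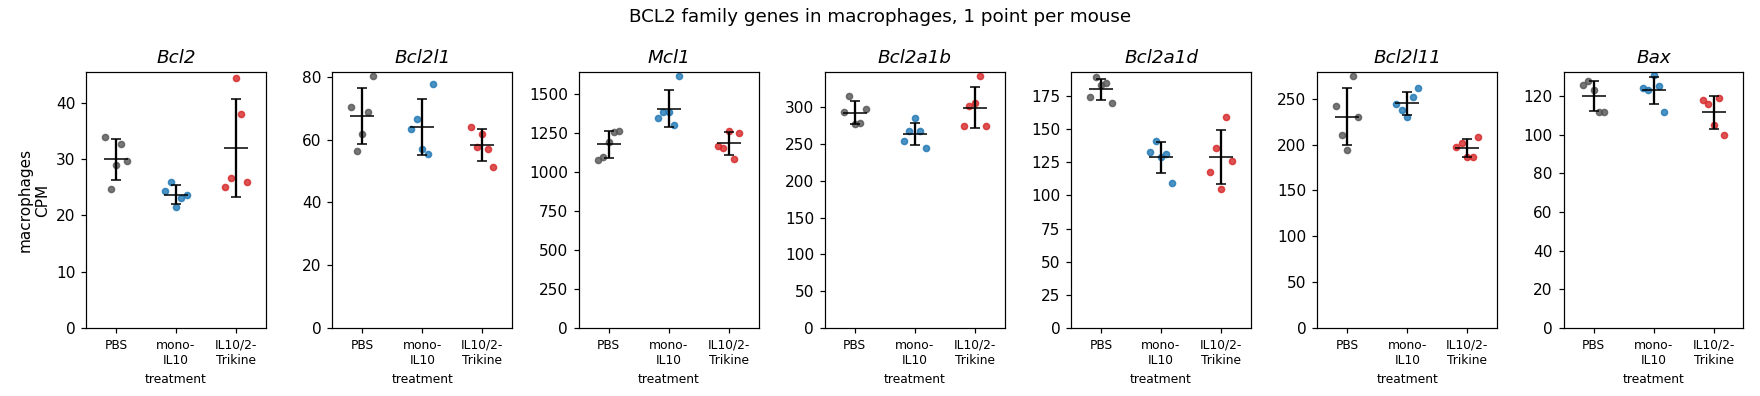
Level of the 7 genes in macrophages (y axis, CPM from 0) by treatment (x axis), 1 point per mouse, with the mean (dash) and SD (bars) of 5 mice. All 5 mono-IL10 mice lie above the other mice for Mcl1 (1306 to 1618 CPM), and all treated mice lie below the PBS mice for Bcl2a1d.

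Macrophages were not 1 uniform population, and their makeup differed between the treatment libraries. Shares and levels are over all 7553, 5655 and 5127 macrophages of the PBS, mono-IL10 and IL10/2-Trikine libraries, not per mouse. Of these cells, 7325, 5565 and 4669 had a called mouse and entered the tests above. Of 11 clusters, a Cx3cr1, Hpgds cluster made up 20.4% of macrophages with PBS, 4.31% with mono-IL10 and 2.56% with IL10/2-Trikine. A Cd163, Tmem26 cluster went from 2.36% to 24.4% and 8.84%, and an Ear2, Ccl17 cluster from 11% to 2.19% and 3.35%. Clusters led by Ccl12, Ccl7 (8.53%, 7.39% and 26.2%) and by Arg1, Ccl24 (8.84%, 14.8% and 23.6%) were the largest with IL10/2-Trikine. An Il10, Ckap2l cluster went from 12.1% to 12.7% and 3.14%. Bcl2a1d was highest in the Ear2, Ccl17 cluster, at 344 CPM, and lowest in a Cd163, Fcna cluster, at 64.4 CPM. Mcl1 ranged from 818 CPM (a C9 cluster) to 1559 CPM (Il10, Ckap2l cluster). Bcl2l11 ranged from 137 CPM (Cd163, Fcna cluster) to 333 CPM (Il10, Ckap2l cluster), with 171 CPM in the Ccl12, Ccl7 cluster. The members were therefore compared within each cluster as well (plot of differences within macrophage clusters), an alternative added after the data were seen and with fewer cells per mouse.

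For mono-IL10 against PBS, Mcl1 was above 0 in 10 of 11 clusters, from -0.03 to 0.38 with a median of 0.21, and passed the threshold in 1, the Cd163, Tmem26 cluster (0.30, adjusted p = 0.0443). For IL10/2-Trikine against mono-IL10, Mcl1 was below 0 in 11 of 11, from -0.48 to -0.03, and passed in 2, those led by Arg1, Ccl24 (-0.39, adjusted p = 0.0177) and by Il10, Ckap2l (-0.48, adjusted p = 0.0382).

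For mono-IL10 against PBS, Bcl2a1d was below 0 in 9 of 11 clusters, at -0.00 in 1 and above 0 in 1, and for IL10/2-Trikine against PBS below 0 in 9 and above 0 in 2. Its median within clusters was -0.17 for mono-IL10 and -0.10 for IL10/2-Trikine against PBS, beside -0.39 and -0.49 in all macrophages, with 1 call (Dcstamp, Mmp19 cluster, -0.33, adjusted p = 0.0333) and 0 calls. In the Cd163, Tmem26 cluster the sign was positive, at 0.34 (adjusted p = 0.321) and 0.44 (adjusted p = 0.346). Bcl2l11 for IL10/2-Trikine against mono-IL10 was below 0 in 10 of 11 clusters, with a median of -0.21 and 0 calls.

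**Figure D3:**
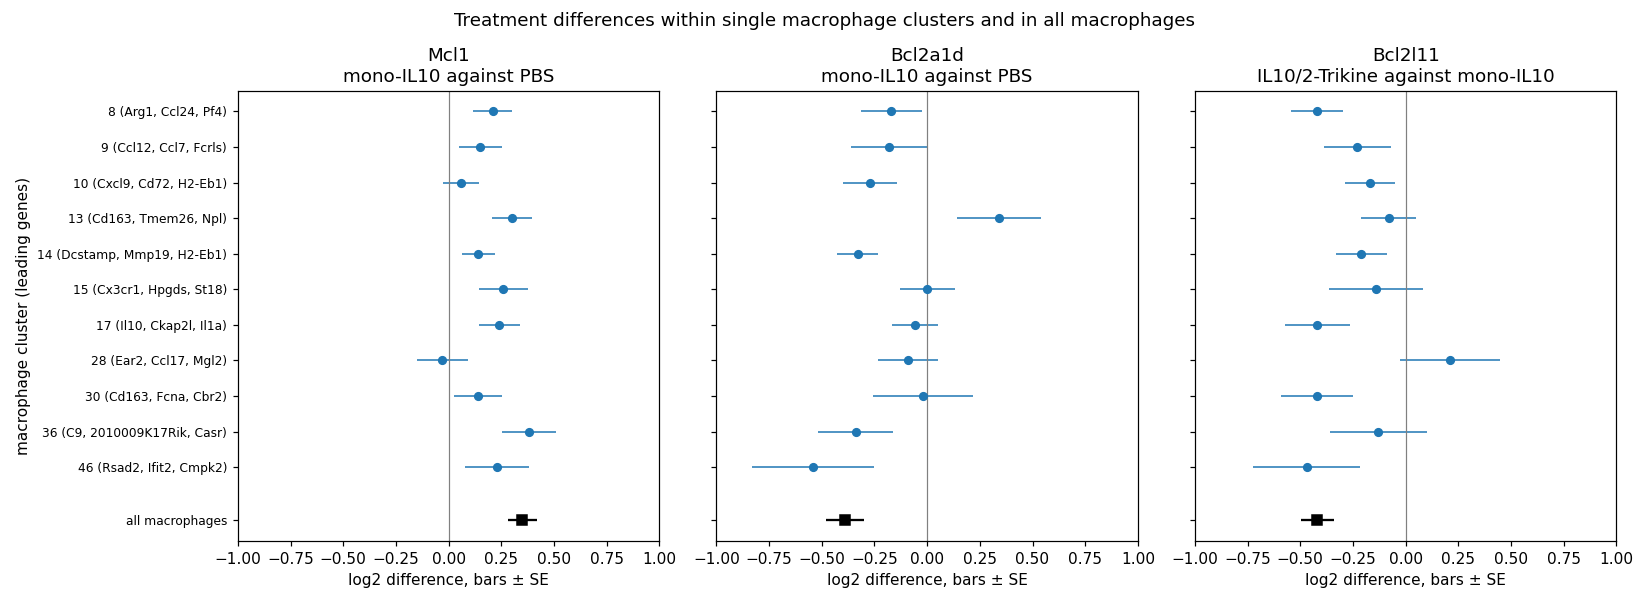
Fitted log2 difference (x axis, bars ± SE) in each of 11 macrophage clusters (blue points, y axis labels give leading genes) and in all macrophages (black square) for Mcl1 and Bcl2a1d, mono-IL10 against PBS, and Bcl2l11, IL10/2-Trikine against mono-IL10. Mcl1 is above 0 in 10 of 11 clusters, Bcl2l11 is below 0 in 10 of 11, and Bcl2a1d is below 0 in 9 of 11, at -0.00 in 1 and above 0 in 1.

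Neutrophils were few after the minimum of 1000 genes per barcode: 353, 608 and 34 cells, with only 2 IL10/2-Trikine mice at 10 or more cells, so that IL10/2-Trikine was not tested on them, the minimum set here being 3 mice per group. Mono-IL10 against PBS called 0 of 6 members tested where 4.71% of genes passed, and DESeq2 also called 0. At an unadjusted p under 0.05 it was 4 of 6 members, beside 609 of 3289 genes. Bcl2a1d was closest, at 0.49 (SE 0.143, adjusted p = 0.0506), and passed under 5 of the alternatives tried. With a minimum of 500 genes, which was one of the alternatives, all 5 mice of each group had 17 or more neutrophils, and these values follow. Clusters of 1420 and 864 low-count barcodes whose best match was neutrophils were left unnamed at this minimum, with 461 and 384 barcodes from PBS, 821 and 442 from mono-IL10, and 138 and 38 from IL10/2-Trikine.

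The A1 genes rose in neutrophils with mono-IL10. Bcl2a1b was 751, 707, 723, 644 and 667 CPM in the PBS mice. It was 1030, 847, 918, 933 and 1009 CPM with mono-IL10 and 491, 909, 687, 683 and 540 CPM with IL10/2-Trikine. All mono-IL10 mice lay above all PBS mice, and 1 IL10/2-Trikine mouse lay within the mono-IL10 range. The difference was 0.49 (SE 0.122, adjusted p = 0.0102) for mono-IL10 against PBS and -0.59 (SE 0.147, adjusted p = 0.00779) for IL10/2-Trikine against mono-IL10. The latter missed the threshold without IL10/2-Trikine mouse 1 (adjusted p = 0.0557).

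Bcl2a1d was 399, 538, 417, 527 and 452 CPM in the PBS mice. It was 741, 660, 652, 699 and 536 CPM with mono-IL10 and 413, 531, 952, 505 and 477 CPM with IL10/2-Trikine. The PBS and mono-IL10 groups overlapped by 1 mouse, and IL10/2-Trikine mouse 3 stood far above its group. The difference was 0.57 (SE 0.127, adjusted p = 0.00423) for mono-IL10 against PBS, and -0.45 (SE 0.156, adjusted p = 0.063) for IL10/2-Trikine against mono-IL10, which passed at -0.56 (adjusted p = 0.0156) without that mouse and at -0.52 (adjusted p = 0.0328) without mono-IL10 mouse 5.

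Mcl1 in neutrophils was 2572, 2340, 3037, 2876 and 2499 CPM with PBS. It was 3274, 2710, 3243, 2831 and 2762 CPM with mono-IL10 and 2377, 2727, 2485, 2199 and 2352 CPM with IL10/2-Trikine. The mono-IL10 and IL10/2-Trikine groups overlapped by 1 mouse. IL10/2-Trikine was lower than mono-IL10 by -0.41 (SE 0.117, adjusted p = 0.02), a call lost without IL10/2-Trikine mouse 4 (adjusted p = 0.0638) and under scaling by total UMIs (-0.24, adjusted p = 0.157). Bax differed by -0.98 (SE 0.32, adjusted p = 0.0491) in the same comparison, but kept its call in only 2 of 10 fits without 1 mouse and not with DESeq2 (adjusted p = 0.136).

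The remaining members did not pass the threshold in these neutrophils or were not tested. Bcl2l1 was 217 ± 38.2 CPM with PBS, 285 ± 24.1 with mono-IL10 and 224 ± 78.9 with IL10/2-Trikine (SD, n = 5 each), so that mono-IL10 differed from PBS by 0.45 (adjusted p = 0.0704). Bcl2l11 was 361 ± 15.9, 360 ± 74.6 and 337 ± 40.9 CPM. Bcl2 was 4.3 to 13.7 CPM per mouse with PBS, 0 to 3.49 with mono-IL10 and 0 to 12.9 with IL10/2-Trikine, a handful of UMIs per mouse, and did not pass the filter on low counts.

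In counts, 2 of 6 members tested were higher for mono-IL10 against PBS where 7.11% of genes passed. For IL10/2-Trikine against mono-IL10, 3 of 6 were lower where 8.99% did. For IL10/2-Trikine against PBS, 0 of 6 passed where 1.56% did, and DESeq2 also called 0. At an unadjusted p under 0.05 it was Bax alone in that comparison, at -0.71, beside 472 of 3461 genes. Scaling by total UMIs moved the median of all genes to 0.15 for IL10/2-Trikine against mono-IL10, and the share of called genes that were higher from 46% to 73.8%; for mono-IL10 against PBS it went from 39.8% to 23.2%, and for IL10/2-Trikine against PBS from 35.2% to 64.3%. Under it Bcl2a1b stayed past the threshold against mono-IL10 (-0.43, adjusted p = 0.0479), as did both A1 genes for mono-IL10 against PBS. Summed macrophage markers in these neutrophils were 2205 to 7386 CPM with PBS, 1433 to 1640 with mono-IL10 and 2273 to 7197 with IL10/2-Trikine, all 9 of 9 detected in each group. Tumor epithelial markers were 86 to 678, 65.5 to 110 and 117 to 853 CPM in the same order, with Epcam at 0 with mono-IL10 and Cldn4 and Epcam at 0 with IL10/2-Trikine. The part of both in the A1 and Mcl1 values was not tested.

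Neutrophil clusters also differed in these genes and in share. Shares and levels are over all 2376, 2354 and 550 neutrophils of the PBS, mono-IL10 and IL10/2-Trikine libraries, not per mouse. Of these cells, only 651, 1117 and 239 had a called mouse and entered the tests above. Bcl2a1b and Bcl2a1d were highest in a cluster led by Il23a, Gpr84 and Ffar2, at 1245 and 958 CPM, which made up 10.8% of neutrophils with PBS, 23.6% with mono-IL10 and 12% with IL10/2-Trikine. They were 519 and 274 CPM in a cluster led by Retnlg and Stfa2l1 and 497 and 442 CPM in one led by Prss2 and Siglecf. With PBS, mono-IL10 and IL10/2-Trikine the Prss2, Siglecf cluster made up 27.1%, 31.5% and 44.4% of neutrophils. The Retnlg, Stfa2l1 cluster made up 17.8%, 15.4% and 8.55%. Mcl1 was lowest in the Prss2, Siglecf cluster, at 2157 CPM, and 3143 CPM in the Retnlg, Stfa2l1 cluster. The part of these shares in the pooled differences was not tested. Within the 5 clusters, mono-IL10 against PBS gave Bcl2a1b differences of 0.09 to 0.88, all above 0, and Bcl2a1d differences of -0.19 to 0.58, with 0 calls for either.

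**Figure D4:**
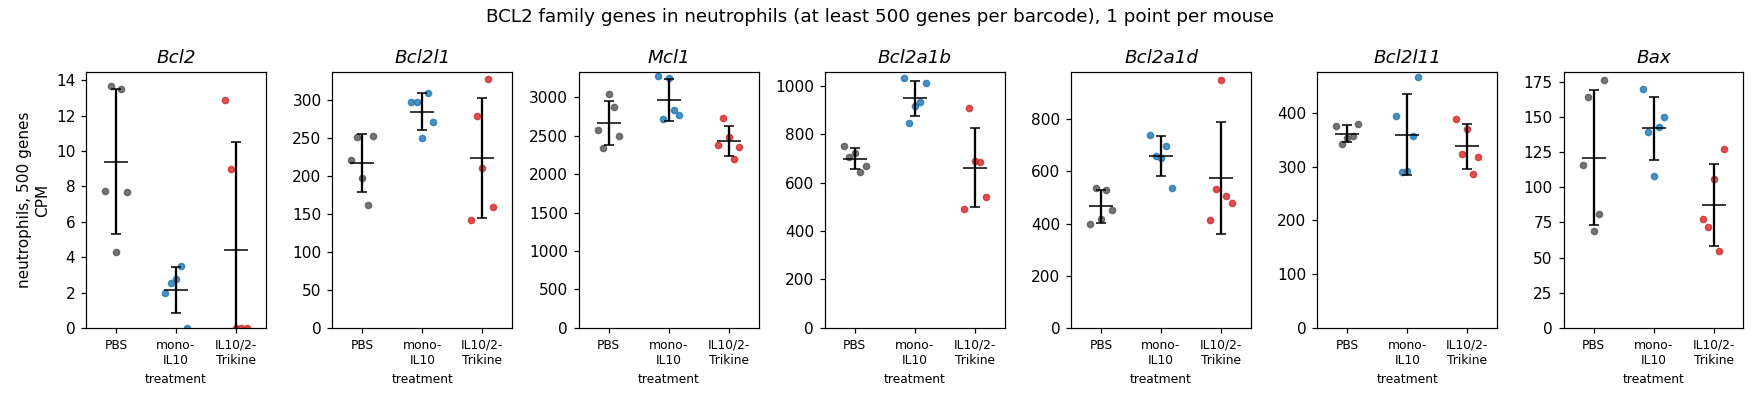
Level of the 7 genes in neutrophils with at least 500 genes per barcode (y axis, CPM from 0) by treatment (x axis), 1 point per mouse, with the mean (dash) and SD (bars) of 5 mice. For Bcl2a1b all mono-IL10 mice (847 to 1030 CPM) lie above the PBS mice (644 to 751 CPM), and the IL10/2-Trikine mice, with the fewest cells, spread most.

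In the pooled populations Bcl2a1d fell in macrophages and, with 500 genes per barcode, rose in neutrophils of the mono-IL10 mice. Whether the pooled effects differ was tested as the interaction of cell type and treatment with the mouse as a block, in 5 mice of each group and 8441 genes. This test was added after the data were seen. The makeup of both populations differed between the treatment libraries. Bcl2a1d for mono-IL10 against PBS ranged from -0.54 to 0.34 within macrophage clusters and from -0.19 to 0.58 within neutrophil clusters. The interaction was not tested within clusters. For mono-IL10 against PBS the neutrophil effect exceeded the macrophage effect by 0.94 for Bcl2a1d (SE 0.167, adjusted p = 9.39e-05) and 0.59 for Bcl2a1b (SE 0.171, adjusted p = 0.0294). Both passed under all 3 scalings, at 0.90 to 0.94 and 0.55 to 0.59, and 4.7% of all genes did under TMM. Bcl2a1a differed likewise, by 0.84 (adjusted p = 7.15e-04), and by -1.09 (adjusted p = 2.30e-04) for IL10/2-Trikine against mono-IL10.

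For IL10/2-Trikine against mono-IL10 the interaction was -1.06 for Bcl2a1b (SE 0.196, adjusted p = 2.18e-04), where 4.87% of genes passed, and stayed past the threshold at -0.74 (adjusted p = 0.0104) with RLE size factors and -0.62 (adjusted p = 0.0313) with total UMIs. Bcl2a1d (-0.80) and Bax (-1.13) passed only under TMM, where the median of all genes was itself -0.25 against 0.05 with RLE and 0.15 with total UMIs; 17.5% of called genes were higher under TMM, 57.8% with RLE and 76.8% with total UMIs. For IL10/2-Trikine against PBS 0 of 7 passed, where 1.4% of genes did, and RLE and total UMIs also called 0. At an unadjusted p under 0.05 it was 3 of 7 members, beside 1065 of 8441 genes. DESeq2 was not run on the interactions.

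No member passed the threshold in NK or T cells, and their effects were not tested against those in macrophages or neutrophils. The sums were small, 33913 to 333657 UMIs per mouse for NK cells (5, 4 and 5 mice) and 46789 to 661363 UMIs for T cells (5 mice each). Of 6 members tested in NK cells 0 were called, where 4.42% (IL10/2-Trikine against PBS), 2.38% (IL10/2-Trikine against mono-IL10) and 0.297% (mono-IL10 against PBS) of genes passed. No member was under an unadjusted p of 0.05 there, where 421, 379 and 273 of 2355 genes were. Of 7 tested in T cells 0 were called, where 8.97%, 12.3% and 1.72% passed. At an unadjusted p under 0.05 there were 1, 1 and 0 members, beside 739, 831 and 482 of 3189 genes. DESeq2 called 0 in both.

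Bcl2 in NK cells was 265, 226, 339, 225 and 221 CPM with PBS. It was 225, 301, 298 and 185 CPM with mono-IL10 and 218, 193, 150, 280 and 173 CPM with IL10/2-Trikine. The groups overlapped. The difference was -0.32 (95% interval -0.76 to 0.12) for IL10/2-Trikine against PBS, -0.38 (-0.76 to 0.00) against mono-IL10 and 0.06 (-0.35 to 0.46) between mono-IL10 and PBS. Bcl2l11 in NK cells was 528 ± 102 CPM with PBS (SD, n = 5), 448 ± 110 with mono-IL10 (n = 4) and 444 ± 85 with IL10/2-Trikine (n = 5), with a difference of -0.21 (95% interval -0.58 to 0.16) for IL10/2-Trikine against PBS. Mcl1 in NK cells was 192 ± 68.7, 187 ± 28.3 and 202 ± 50.3 CPM in the same order, with intervals between the groups that reached at most 0.57 in either direction.

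Bcl2 in T cells was 358, 136, 242, 183 and 161 CPM with PBS. It was 130, 194, 91.2, 243 and 128 CPM with mono-IL10 and 142, 131, 208, 128 and 82.7 CPM with IL10/2-Trikine. The PBS mice spread widely and the groups overlapped. The difference for IL10/2-Trikine against PBS was -0.70 (95% interval -1.32 to -0.07, adjusted p = 0.159), which passed only without the filter on low counts (-0.80, adjusted p = 0.0263). Bcl2a1d in T cells was 95.6 ± 39.3, 106 ± 22.4 and 62.5 ± 25.1 CPM (SD, n = 5 each), with a difference of -0.63 (95% interval -1.20 to -0.06, adjusted p = 0.146) between IL10/2-Trikine and mono-IL10.

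The makeup of the annotated T cells differed between the treatment libraries too. Of 342, 580 and 299 such cells with PBS, mono-IL10 and IL10/2-Trikine, 249, 446 and 181 entered the sums. Of all annotated cells, Cycling_T held 174 with IL10/2-Trikine and naive_CD8T 2, against 55 and 38 with PBS and 120 and 160 with mono-IL10, and Bcl2 was 130 CPM in Cycling_T and 311 CPM in naive_CD8T over all libraries. Summed NK markers in the T cells were 422 to 834 CPM with IL10/2-Trikine, 124 to 288 with PBS and 108 to 184 with mono-IL10, all 5 of 5 detected in each, and summed T cell markers 1524 to 2075, 2339 to 2967 and 3364 to 3776 CPM. Without the naive clusters, without Cycling_T, without the naive and cycling clusters, or with the NK-like Cycling_T cells moved to NK cells, 0 of 7 members passed in any T cell comparison (lowest adjusted p = 0.0967, Bcl2a1d, IL10/2-Trikine against mono-IL10, without the naive clusters). Of all genes, 286 (IL10/2-Trikine against PBS), 391 (IL10/2-Trikine against mono-IL10) and 55 (mono-IL10 against PBS) were called in all T cells. In the same order these fell to 41, 137 and 26 without Cycling_T and to 26, 18 and 3 without naive and cycling clusters. With NK-like cells moved they were 87, 167 and 31. Without the naive clusters alone, 241 were called for IL10/2-Trikine against mono-IL10. The Bcl2 difference for IL10/2-Trikine against PBS was -0.33 without the naive clusters and -0.84 without Cycling_T.

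Whether NK and T cells responded differently was tested as an interaction in the 5, 4 and 5 mice with enough of both cells. For IL10/2-Trikine against PBS, IL10/2-Trikine against mono-IL10 and mono-IL10 against PBS, 0 of 7 members passed, where 0.077%, 0.796% and 0.128% of genes did. No member was under an unadjusted p of 0.05, where 305, 364 and 234 of 3895 genes were. The intervals were wide: for Bcl2 and IL10/2-Trikine against PBS the NK effect minus the T cell effect was 0.30 (95% interval -0.32 to 0.92).

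**Figure D5:**
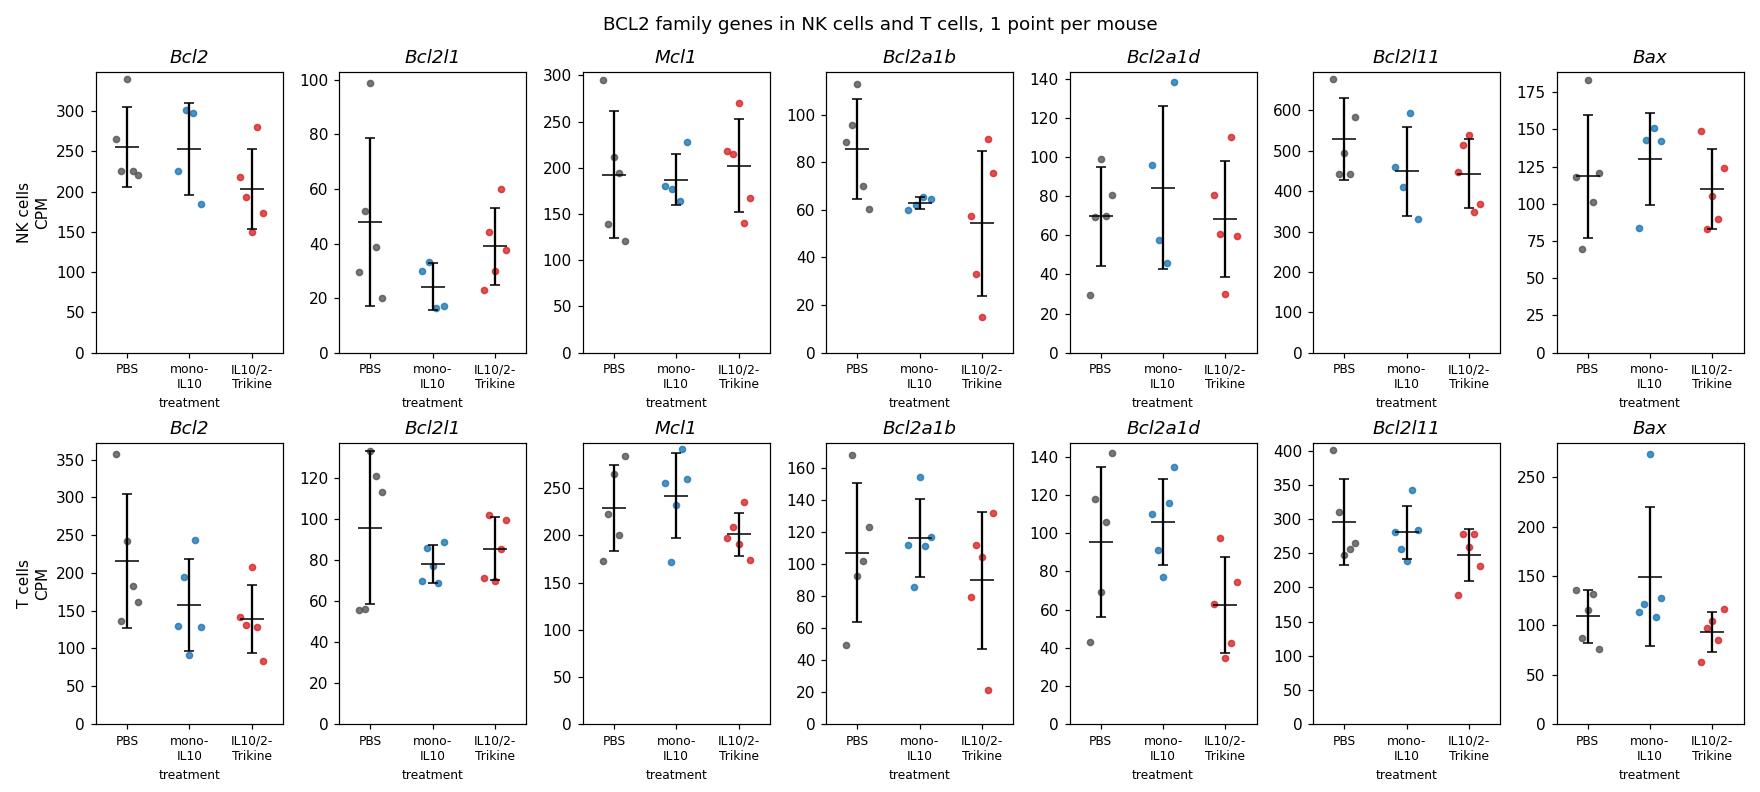
Level of the 7 genes in NK cells (top row) and T cells (bottom row) (y axis, CPM from 0) by treatment (x axis), 1 point per mouse, with the mean (dash) and SD (bars); mono-IL10 NK cells have 4 mice, all others 5. The groups overlap for every gene, and Bcl2 in T cells spans 136 to 358 CPM among the PBS mice.

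Relatives outside the 7 genes were counted from 5 further lists; of all genes, 29.5% passed in macrophages for mono-IL10 against PBS, 16.7% for IL10/2-Trikine against PBS and 13.8% between the agents. Of 7 other BH3-only genes, 5 were tested in macrophages: Bmf was higher with both agents than with PBS (0.62, adjusted p = 0.0032, with mono-IL10; 0.51, adjusted p = 0.0473, with IL10/2-Trikine) and Bbc3, which encodes PUMA, was lower with both (-0.58, adjusted p = 0.0184; -0.71, adjusted p = 0.0284). Bad was higher with mono-IL10 (0.30, adjusted p = 0.0069). Both Bmf and Bbc3 were low, at 4.24 ± 0.706 and 6.61 ± 0.556 CPM with PBS (SD, n = 5 each). The effector relative Bok, also rare, was 3.5 ± 1.78 CPM with PBS, 1.74 ± 0.592 with mono-IL10 and 6.49 ± 2.32 with IL10/2-Trikine, with a difference of 1.65 between the agents (adjusted p = 0.00601), -0.94 for mono-IL10 against PBS (adjusted p = 0.0406) and 0.71 for IL10/2-Trikine against PBS (adjusted p = 0.163). Of 3 other guardians, Bcl2a1a passed in macrophages as given above, and in neutrophils with 500 genes it was higher with mono-IL10 than PBS (0.52, adjusted p = 0.0078) and lower with IL10/2-Trikine than mono-IL10 (-0.75, adjusted p = 0.00171). Of 4 atypical family members, Bcl2l12 and Bcl2l13 were tested in macrophages and edgeR called 0. At an unadjusted p under 0.05 there was 1 value (Bcl2l13, IL10/2-Trikine against mono-IL10), in a comparison where 3315 of 12241 genes were. DESeq2 values were not extracted for these lists.

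Among 10 genes downstream of the mitochondrion, 10 were tested in macrophages. Birc3, an inhibitor-of-apoptosis gene, was 146 ± 11.5 CPM with PBS, 166 ± 11.2 with mono-IL10 and 132 ± 8.84 with IL10/2-Trikine (SD, n = 5 each). The difference was 0.28 (adjusted p = 0.00695) for mono-IL10 against PBS and -0.45 (adjusted p = 8.50e-04) for IL10/2-Trikine against mono-IL10. Mcl1 was also highest with mono-IL10, but with IL10/2-Trikine it stood at the PBS level. Apaf1 (0.22) and Xiap (0.16) were higher with mono-IL10, and Diablo (0.41) was higher with IL10/2-Trikine, each against PBS. Of these 10, 4 were tested in NK cells and 6 in T cells, and 1 passed: Cycs, cytochrome c, was higher in T cells with IL10/2-Trikine than PBS (0.79, adjusted p = 0.00747), where 8.97% of all genes passed. In neutrophils with 500 genes Cycs was higher with mono-IL10 than PBS (0.65, adjusted p = 0.0142), where 7.11% of all genes passed, but it missed the threshold with the minimum of 1000 genes (0.63, adjusted p = 0.0726).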

How the data were processed

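The authors made the deposited UMI counts with Cell Ranger 9.0.1 against GRCm39, from 5' single-cell libraries with hashtag oligonucleotides, 1 library of 5 pooled mice per treatment. They annotated T and NK cells with Seurat 5.1.0 after keeping barcodes with at least 1000 genes and at most 10% mitochondrial UMIs, and the deposited table gives this percent per cell. Its 7858 cells of another group were not used.

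Here the same limits were applied to the matrices, mice were called with HTODemux (Seurat 5.3.0, quantile 0.99) and hashtag doublets (12.1%, 8.5% and 12.2% of barcodes with PBS, mono-IL10 and IL10/2-Trikine) were removed; doublets within a mouse remain. Barcodes were grouped by k-means (40 components, 60 clusters, 2000 variable genes without the family genes; scikit-learn 1.9.0) and named from marker lists. Raw counts were summed per mouse with at least 10 cells, in at least 3 mice per group, giving 18917 to 13637238 UMIs per mouse, and tested with edgeR 4.0.16 (quasi-likelihood, TMM, filterByExpr, Benjamini-Hochberg over all genes tested, threshold 0.05). DESeq2 1.42.0, other scalings, filters and clusterings, and leaving out each mouse were alternatives. Total-UMI scaling, fits within single clusters, T cells without naive and cycling clusters and the interaction of neutrophils and macrophages were added after the data were seen. The count test was first tested on simulated data. Intervals of levels cover counting error only.

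The members and lists were chosen with earlier results of these data known. The 7 members were named throughout, as were listed relatives past the threshold (at most 5 per comparison; 1 result of these lists is not reported here) and the 3 genes most alike in level to each member (log2(CPM + 1), mean of at least 20 CPM). Sequences came from a GRCm38 annotation and RefSeq on GRCm38.p6; coordinates of the files' own build were not used. Each mouse came from 1 library, so p-values measure the spread between mice within libraries.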

Additional observations from a re-analysis of the deposited data

Results flagged for a closer look

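Of 98 groups of mice checked, 5 held a mouse that stood far from the others by Dixon's test, and chance flags about 1 in 20 groups. These were Bcl2 in neutrophils of mono-IL10 mouse 2 (17.6 CPM), Mcl1 in macrophages of mono-IL10 mouse 5 (1618 CPM), Bcl2a1d in neutrophils with at least 500 genes of IL10/2-Trikine mouse 3 (952 CPM), Bax in NK cells of mono-IL10 mouse 1 (83.9 CPM) and Bax in T cells of mono-IL10 mouse 3 (274 CPM). The Mcl1 rise in macrophages stayed past the threshold in every fit that left out 1 mouse, from 0.30 to 0.38.

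The effect of treatment differed between pooled neutrophils and pooled macrophages, whose makeup differed between the treatment libraries, for 5 values. For mono-IL10 against PBS these were Bcl2a1b (0.59) and Bcl2a1d (0.94), higher in neutrophils under all 3 scalings. For IL10/2-Trikine against mono-IL10 they were Bcl2a1b (-1.06), which passed under all 3 scalings, and Bcl2a1d (-0.80) and Bax (-1.13), which passed with TMM and not with RLE or total UMIs.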

How the results depend on the processing

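No paired analysis was possible because hashtag numbers mark different mice in each library. Tests of IL10/2-Trikine in neutrophils with 1000 genes per barcode were not run, since 2 of its mice had enough cells and the minimum was 3 per group.

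Of 7 members, the number called for IL10/2-Trikine against PBS in macrophages (2) was 1 with total UMIs, with 40 clusters, with 500 genes per barcode and with a hashtag ratio of 3, and 1 to 2 without 1 mouse. For mono-IL10 against PBS in neutrophils (0) it was 1 with RLE, 1 with at least 20 cells, 2 with 40 clusters, 2 with 500 genes, and 0 to 1 without 1 mouse (1 without PBS mouse 2). In neutrophils with 500 genes, IL10/2-Trikine against mono-IL10 (3) gave 1 with total UMIs, 5 without the filter on low counts and 1 to 3 without 1 mouse (1 without IL10/2-Trikine mouse 1 or 4). For IL10/2-Trikine against PBS in T cells (0) it was 1 without that filter. The difference of the effect between neutrophils and macrophages for IL10/2-Trikine against mono-IL10 (3) gave 1 with RLE and 1 with total UMIs. Within single macrophage or neutrophil clusters, with fewer cells, 0 or 1 members were called in each comparison. The cause of the other changes was not tested.

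Signs that turned within clusters were Bcl2l11, IL10/2-Trikine against PBS (0.14 in the Cxcl9 and 0.17 in the Ear2 cluster) and against mono-IL10 (0.21, Ear2), Bax, IL10/2-Trikine against mono-IL10 (0.11, Cxcl9, and 0.44, C9), Bcl2a1d, IL10/2-Trikine against PBS (0.44, Cd163 and Tmem26, and 0.02, Ear2) and mono-IL10 against PBS (0.34, Cd163 and Tmem26), and Mcl1, mono-IL10 against PBS (-0.03, Ear2). In neutrophils they were Mcl1, IL10/2-Trikine against mono-IL10 (0.08, Prss2) and Bcl2a1d, mono-IL10 against PBS (-0.19, Retnlg). Counting all annotated cells moved 3 of 98 levels by over 1 SD: Bcl2 in NK cells with PBS to 307 CPM, and Bcl2l1 (69.8 CPM) and Bcl2l11 (294 CPM) in T cells with IL10/2-Trikine.

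Counts over all genes that changed by over 1.5 times were these. In NK cells, IL10/2-Trikine against PBS (104) gave 41 with at least 20 cells, 62 with the NK cluster alone and 61 without PBS mouse 4. IL10/2-Trikine against mono-IL10 (56) gave 94 with DESeq2, 20 with the NK cluster alone, 159 with NK-like Cycling_T cells added, 9, 31 and 28 without mono-IL10 mouse 1, 2 and 4, and 24, 25 and 36 without IL10/2-Trikine mouse 2, 4 and 5. Mono-IL10 against PBS (7) gave 14 with DESeq2, 46 without the filter, 2 with at least 20 cells, 12 with NK-like Cycling_T cells added, and 3 and 13 without mono-IL10 mouse 1 and 4. In T cells, IL10/2-Trikine against PBS (286) gave 160 with at least 20 cells, 41 without Cycling_T, 87 without its NK-like cells, 26 without naive and cycling clusters and 151 without IL10/2-Trikine mouse 2. IL10/2-Trikine against mono-IL10 (391) gave 241 without naive clusters, 137, 167 and 18 under the same removals in that order. Mono-IL10 against PBS (55) gave 135 without the filter, 26, 31 and 3 under those removals, and 26, 20 and 31 without PBS mouse 3, mono-IL10 mouse 1 and mono-IL10 mouse 5. In macrophages, IL10/2-Trikine against mono-IL10 (1692) gave 1127 without IL10/2-Trikine mouse 1. In neutrophils, mono-IL10 against PBS (155) gave 234 with 40 clusters, 246 with 500 genes, 95 and 94 without PBS mouse 3 and 5, and 98, 102 and 80 without mono-IL10 mouse 2, 3 and 4. With 500 genes, IL10/2-Trikine against PBS (54) gave 137 with DESeq2, 179 without the filter and 30 without IL10/2-Trikine mouse 4, IL10/2-Trikine against mono-IL10 (311) gave 583 without the filter and 204 without IL10/2-Trikine mouse 1, and mono-IL10 against PBS (246) gave 390 without the filter. Between neutrophils and macrophages, IL10/2-Trikine against PBS (118) gave 12 with RLE and 9 with total UMIs, and against mono-IL10 (411) 180 and 194. Between NK and T cells, the 3, 31 and 5 genes became 0, 7 and 1 with NK-like Cycling_T cells moved and 0, 0 and 1 without naive and cycling clusters. Within single clusters the counts ranged from 1 to 703 where they moved.

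The share of called genes that were higher moved with total UMIs from 39.3% to 64.2% (NK cells) and from 49.4% to 60.3% (T cells) for IL10/2-Trikine against mono-IL10, and from 69.1% to 41.4% for mono-IL10 against PBS in T cells. Between neutrophils and macrophages, for IL10/2-Trikine against PBS, it went from 0% to 16.7% with RLE and 22.2% with total UMIs, and between NK and T cells, on 3 and 4 genes, from 66.7% to 50% with RLE.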

Other observations

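The clusters named tumor cells from epithelial markers gave a level of the members outside the immune system of the same tumors, in 5 mice of each group and with no test. Mcl1 was 268 ± 24 CPM (SD, n = 5) with PBS, 247 ± 13 with mono-IL10 and 234 ± 20.4 with IL10/2-Trikine. Bcl2 was 37.9 ± 3.91, 30.8 ± 1.96 and 37.7 ± 2.13 CPM, and Bax 82.3 ± 3.53, 85.9 ± 3.23 and 78.3 ± 1.98 CPM, in the same order.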
